A study of Mus musculus with 6 samples.

Results

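The hnRNP and SR splicing proteins were examined in CD4+CD62L- T cells of mouse lymph nodes that lacked or carried Dicer. Members were the genes whose single annotated symbol began with Hnrnp, Hnrp, Srsf or Sfrs followed by a letter or number, together with Tra2a, Tra2b, Srrm1 and Srrm2. This symbol rule found 31 of 19935 measured genes, on 44 rows of the array table: 17 hnRNP genes, 10 SR genes, and the 4 genes added by name. Hnrnpa1, Hnrnpa3 and Hnrnph3 lie on rows that carry several symbols and have no gene value here, and Srsf7 is not analysed here.

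Both genotypes carried floxed Dicer alleles (Dicer lox/lox). The Dicer WT group held 3 biological replicates from animals without CD4Cre and the Dicer KO group 3 from animals with it, a Cre recombinase driven by Cd4 regulatory sequences, which are active in T lineage cells. The labels call the sorted CD4+CD62L- cells resting T cells and give no further treatment. The centred values give no level by which to check this state. No source used here gives the age or strain of the animals, or says whether a replicate pooled several. RNA was amplified and hybridised to Affymetrix MoGene 1.0 ST arrays, 1 per sample. Each array row is a log value centred on the median of its 6 arrays and is read here as log2, a base that no source used here states. Values of a genotype are listed in the order of replicates 1, 2 and 3. The values therefore give differences between arrays and no expression level, and the 3 arrays per genotype limit the precision.

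Pre-mRNA splicing joins exons in a spliceosome built from small nuclear ribonucleoproteins, and SR and hnRNP proteins influence which splice sites it uses. SR proteins carry RNA recognition motifs and a tail of arginine-serine repeats, bind exonic enhancers and usually favour exon inclusion. The hnRNPs coat nascent transcripts and often silence exons, and many also act in RNA export, stability and translation. In T cells this machinery sets, among others, the exon choice of Ptprc, which encodes CD45. Several family members also limit their own abundance through alternative exons that send the transcript to nonsense-mediated decay.

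The row of Dicer1 read 0.12, 0.020 and -0.095 in Dicer WT against 0.21, -0.020 and -0.087 in Dicer KO. The genotypes overlapped (difference 0.019 ± 0.093 SE, limma adjusted p = 0.949). No source used here gives the exons under its probes, so this row does not check the labels. All 8 measured T cell markers lay in a higher level class, described below, as did 0 of 9 B cell, 0 of 10 myeloid, 1 of 8 CD8 and NK cell and 1 of 5 erythroid and stromal markers. Of the T cell markers 3 were higher and 1 lower in Dicer KO, with Cd4 higher by 0.67 (limma adjusted p = 0.00328). The lower one was Cd5, with a difference of -0.44 (limma adjusted p = 0.00704). Of the CD8 and NK cell markers limma called 0, with 1 higher and 1 lower at an unadjusted p under 0.05. The 9 measured B cell markers all had a positive difference, 1 of them called (Bank1), and medians of -0.56, 0.015 and -0.27 in Dicer WT against 0.16, 0.038 and 0.12 in Dicer KO. Of 10 myeloid markers, 2 were higher (Mpeg1 by 0.96 and Lyz2 by 0.69) and the list median difference was 0.00043. Of the erythroid and stromal markers 1 was higher (Pecam1, by 0.75). Over all genes limma called 8.73%, and of the genes of the higher level class 25.3%. The part of these cell type markers in the results below was not tested. In bulk RNA, fewer cells of a type and less RNA per cell cannot be told apart.

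Hnrnpk, Hnrnpf, Srsf3 and Srsf4 were higher in Dicer KO cells, Srsf12 was lower, and the other 26 members did not pass the test. Genotypes were compared with limma, p-values were adjusted by the Benjamini-Hochberg method across the 19935 genes, and genes under 0.05 were called. Before adjustment 12 of 31 members were higher and 1 lower at p under 0.05, beside 2412 higher and 1873 lower of all 19935 genes. Thus 16.1% of the members were called, 4 higher and 1 lower. Over all genes 8.73% were called, 5.94% higher and 2.79% lower. The members also differ from most genes in level, since 29 of the 31 members (93.5%), but 16.1% of all genes, fell in a higher level class. This class is read from the numerical step of the stored values and holds rows at 8 to 16 on the deposited log scale before centring. It is coarse, can be wrong for a row and is not independent of the genotype difference. Among the 3206 genes of that class 25.3% were called, 21% higher and 4.37% lower. Before adjustment 1186 of these 3206 genes were higher and 289 lower at p under 0.05, and 11 and 0 of the 29 members in the class. Of the 29 members in it, 13.8% were called, a share below that of their level class. The number of calls among the members is therefore not a result particular to them.

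Hnrnpk, a KH domain protein that binds C-rich RNA and DNA, differed most. Its Dicer WT arrays read -0.20, -0.24 and -0.40 and its Dicer KO arrays 0.30, 0.21 and 0.22. Every Dicer KO array lay above every Dicer WT array. Hnrnpk was 1.44-fold higher in Dicer KO (log2 difference 0.52 ± 0.066 SE, n = 3 per genotype, limma adjusted p = 0.00497). Leaving out any single array kept the call (adjusted p 0.00763 to 0.0271).

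Hnrnpf belongs to the F/H group, which binds runs of G. It read -0.18, -0.14 and -0.43 in Dicer WT against 0.28, 0.18 and 0.14 in Dicer KO. The genotypes did not overlap, and Dicer WT 3 stood lowest. The difference was 0.45 ± 0.086 SE, or 1.36-fold (limma adjusted p = 0.0224). Leaving out Dicer WT 1 (adjusted p = 0.0616), Dicer KO 1 (0.067) or Dicer KO 2 (0.084) ended the call.

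Srsf3, an SR protein that also links splicing to mRNA export, rose by 0.33 ± 0.057 SE, or 1.26-fold (limma adjusted p = 0.0147). Its Dicer WT arrays read -0.10, -0.21 and -0.19 and its Dicer KO arrays 0.14, 0.12 and 0.24, without overlap. Srsf3 was not called with Dicer WT 2 left out (adjusted p = 0.0564), nor when arrays were centred within level classes (0.0659).

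Srsf4 is a relative of Srsf5 and Srsf6 with a long arginine-serine tail. It read -0.15, -0.081 and -0.27 in Dicer WT against 0.21, 0.11 and 0.081 in Dicer KO. The genotypes did not overlap, and the difference was 0.30 ± 0.066 SE, or 1.23-fold (limma adjusted p = 0.0353). The call rested on all arrays but Dicer WT 2, since it was lost without any other single array (adjusted p 0.0556 to 0.108), and it was lost with centring within level classes (0.0865).

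Srsf12, a relative of Srsf10, was the member that fell. Its Dicer WT arrays read 0.25, 0.063 and 0.19 and its Dicer KO arrays -0.075, -0.12 and -0.063. Every Dicer KO array lay below every Dicer WT array, and Srsf12 was 1.19-fold higher in Dicer WT (difference -0.25 ± 0.062 SE, limma adjusted p = 0.0493). It lies in the lower level class, as does Hnrnpll among the members. Its call was lost without any single array but Dicer WT 2 (adjusted p 0.0934 to 0.17), with a robust variance prior (0.0512) and with the array median subtracted (0.0519).

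**Figure D1:**
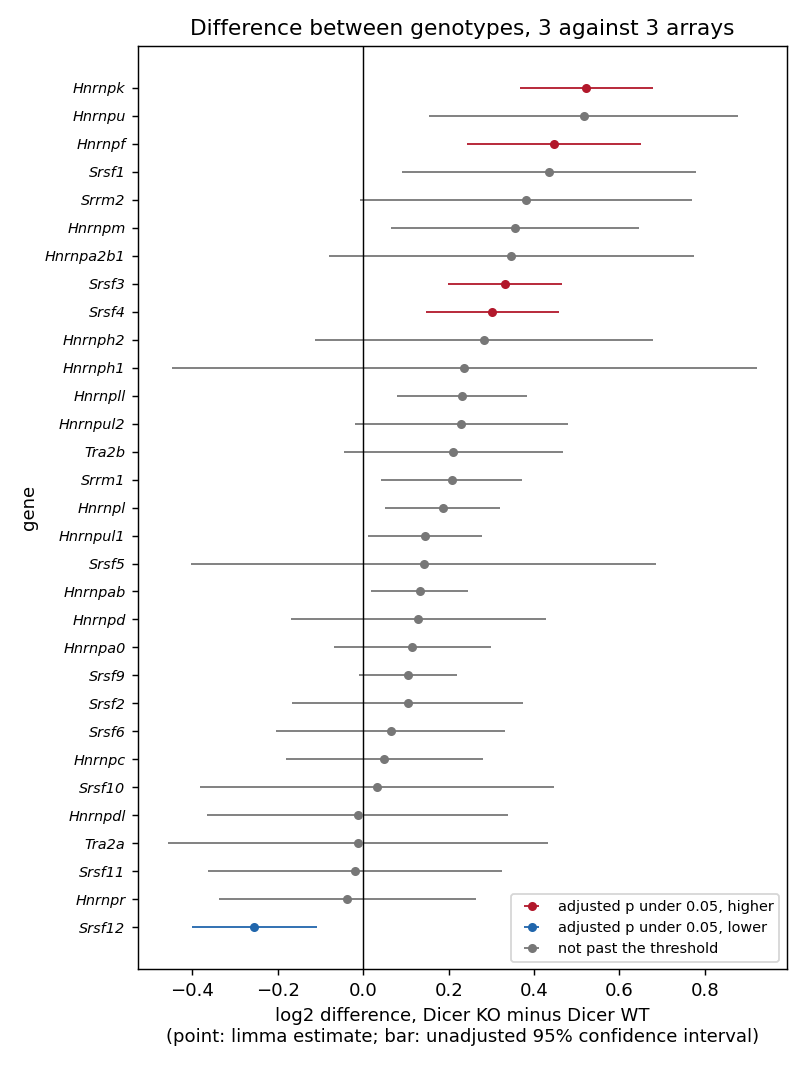
Dicer KO minus Dicer WT on the log2 scale (horizontal axis) for each of the 31 genes, with points for the limma estimate and bars for the unadjusted 95% confidence interval over 3 against 3 arrays. Hnrnpk at 0.52, Hnrnpf at 0.45, Srsf3 at 0.33 and Srsf4 at 0.30 are the red points and Srsf12 at -0.25 is the blue one, while Hnrnpu at 0.52 has a wider bar.

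The RefSeq promoter table for GRCm38.p6 matched 29 of the 31 members and gave 42 start windows for them. Of the 5 called members, Hnrnpk, Srsf3 and Srsf12 had a single start window. Their 150 bases just upstream of the start are shown because these genes moved, Hnrnpk and Srsf3 up and Srsf12 down. Capitals mark any match, on either strand, to the CCAAT box, the GC box GGGCGG, the cyclic AMP response core TGACG, the TATA box TATAAA, or the ETS factor core CCGGAAG. None of these motifs holds another.
Hnrnpk, chr13:58402118-58402267, minus strand: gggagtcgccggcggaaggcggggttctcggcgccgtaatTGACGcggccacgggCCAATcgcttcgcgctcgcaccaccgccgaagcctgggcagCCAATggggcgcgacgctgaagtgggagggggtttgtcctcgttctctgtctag
Srsf3, chr17:29032510-29032659, plus strand: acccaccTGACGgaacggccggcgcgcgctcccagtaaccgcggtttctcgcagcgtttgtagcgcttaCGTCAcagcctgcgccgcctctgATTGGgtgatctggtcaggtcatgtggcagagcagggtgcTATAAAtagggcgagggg
Srsf12, chr4:33209122-33209271, plus strand: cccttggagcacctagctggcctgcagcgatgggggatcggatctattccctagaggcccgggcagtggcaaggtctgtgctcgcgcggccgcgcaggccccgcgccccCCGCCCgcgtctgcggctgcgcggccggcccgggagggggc

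The windows of Hnrnpk and Srsf3 both hold CCAAT and TGACG, and that of Srsf12 holds GGGCGG alone among the letters searched. TGACG was present in 22 of 42 member windows (52.4%) and in 13.3% of all 32851 windows. GGGCGG was in 66.7% of member windows against 28.6% of all windows. CCAAT was in 40.5% against 24.5%, TATAAA in 4.76% against 7.57% and CCGGAAG in 11.9% against 5.52%. The member windows were rich in CpG, with a median of 15 in 150 bases against 4 over all windows, and the printed ones held 20, 15 and 18. These shares describe letters and say nothing of factor binding.

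Beyond Hnrnpk and Hnrnpf no hnRNP gene passed when adjusted over all genes. Of the 17 hnRNP genes 15 had a positive difference, with a median of 0.23. Hnrnpu, a nuclear scaffold protein that binds RNA and chromatin, had as large a difference as Hnrnpk but a wider spread. It read -0.094, -0.094 and -0.59 in Dicer WT against 0.46, 0.22 and 0.094 in Dicer KO (0.52 ± 0.15 SE, limma adjusted p = 0.0937). It passed when the higher level class alone was tested (adjusted p = 0.0398). The groups did not overlap, and Dicer WT 3 stood 0.50 below the mean of the other Dicer WT arrays. Hnrnpm, which binds GU-rich RNA, read -0.096, -0.019 and -0.42 against 0.34, 0.17 and 0.019 (0.35 ± 0.12 SE, adjusted p = 0.143). Hnrnpa2b1, of the A/B group, read -0.017, 0.012 and -0.59 against 0.41, 0.050 and -0.012, so its genotypes overlapped (0.35 ± 0.18 SE, adjusted p = 0.345).

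Hnrnpll and Hnrnpl are the hnRNPs known for silencing the variable exons of Ptprc in lymphocytes. Hnrnpll read -0.040, -0.12 and -0.23 on the Dicer WT arrays and 0.16, 0.040 and 0.11 on the Dicer KO arrays. The genotypes did not overlap, but its difference of 0.23 ± 0.065 SE missed the threshold (limma adjusted p = 0.077, 95% confidence interval 0.079 to 0.38). Hnrnpl read -0.17, -0.040 and -0.12 against 0.048, 0.14 and 0.040, also without overlap (0.19 ± 0.057 SE, adjusted p = 0.102, interval 0.052 to 0.32). The table holds no exon-level values, so the exon use of Ptprc was not analysed here.

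The F/H group was uneven. Next to Hnrnpf, its relatives Hnrnph1 and Hnrnph2 overlapped between genotypes. Hnrnph1 spread most within genotypes, at 0.090, 0.16 and -0.73 in Dicer WT against 0.59, -0.090 and -0.26 in Dicer KO. Its difference of 0.24 ± 0.29 SE was smaller than its standard error (limma adjusted p = 0.739) and turned to -0.048 without Dicer WT 3 and -0.017 without Dicer KO 1. Hnrnph2 read 0.039, -0.066 and -0.62 against 0.18, 0.087 and -0.069 (0.28 ± 0.17 SE, adjusted p = 0.414).

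Of the hnRNPs with small differences, Hnrnpc, which binds U-rich tracts and packages nascent transcripts, differed by 0.049 ± 0.098 SE (limma adjusted p = 0.856, 95% confidence interval -0.18 to 0.28). Hnrnpd, also called AUF1, which binds AU-rich elements of short-lived mRNAs, differed by 0.13 ± 0.13 SE and its relative Hnrnpdl by -0.013 ± 0.15 SE. Hnrnpr, a relative of Syncrip, differed by -0.037 ± 0.13 SE. The 2 negative hnRNP differences were those of Hnrnpdl and Hnrnpr. Hnrnpul1 and Hnrnpul2, which resemble Hnrnpu, differed by 0.14 and 0.23, Hnrnpab by 0.13 and Hnrnpa0 by 0.12, with adjusted p from 0.163 to 0.484 for these 4 genes. Of them, Hnrnpul1 and Hnrnpab did not overlap between genotypes.

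Among the SR proteins, 8 of 10 had a positive difference, with a median of 0.10. Srsf1, the founding member that binds purine-rich enhancers, read -0.15, -0.063 and -0.57 in Dicer WT against 0.38, 0.086 and 0.063 in Dicer KO. The arrays did not overlap, but Dicer WT 3 and Dicer KO 1 lay far from the others of their genotypes and the difference of 0.44 ± 0.15 SE did not pass (limma adjusted p = 0.13). Srsf2, a marker protein of nuclear speckles, overlapped between genotypes at 0.024, 0.042 and -0.33 against 0.16, -0.090 and -0.024 (0.10 ± 0.11 SE, adjusted p = 0.704). Srsf9, a relative of Srsf1, had narrow groups that did not overlap, at -0.088, -0.019 and -0.093 against 0.022, 0.019 and 0.072, and still missed the threshold (0.10 ± 0.049 SE, adjusted p = 0.28).

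Srsf5 read 0.14, 0.064 and -0.60 in Dicer WT against 0.37, -0.064 and -0.28 in Dicer KO, a wider spread within genotypes than between them (0.14 ± 0.23 SE, limma adjusted p = 0.815). Srsf6 (0.064), Srsf10 (0.032) and Srsf11 (-0.019) differed little and overlapped (adjusted p 0.834 to 0.969). Srsf10, which represses splicing when dephosphorylated, had a 95% confidence interval from -0.38 to 0.45, so these arrays do not give its direction.

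Tra2a and Tra2b bind GAA-rich enhancers with SR proteins, and Srrm1 and Srrm2 are large SR-related coactivators, Srrm2 being a scaffold of nuclear speckles. None of these 4 passed with limma, and 1 of them, Srrm1, had an unadjusted p under 0.05. Srrm2 read 0.0013, -0.0013 and -0.32 in Dicer WT against 0.61, 0.22 and -0.014 in Dicer KO, with Dicer KO 1 far above the rest (0.38 ± 0.16 SE, limma adjusted p = 0.242). Srrm1 did not overlap between genotypes, at -0.041, -0.030 and -0.15 against 0.25, 0.12 and 0.030 (0.21 ± 0.070 SE, adjusted p = 0.133). Tra2b read -0.035, 0.0055 and -0.34 against 0.24, -0.017 and 0.041 (0.21 ± 0.11 SE, adjusted p = 0.338). Tra2a read 0.22, 0.12 and -0.40 against 0.28, -0.14 and -0.22 (-0.013 ± 0.19 SE, adjusted p = 0.984).

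**Figure D2:**
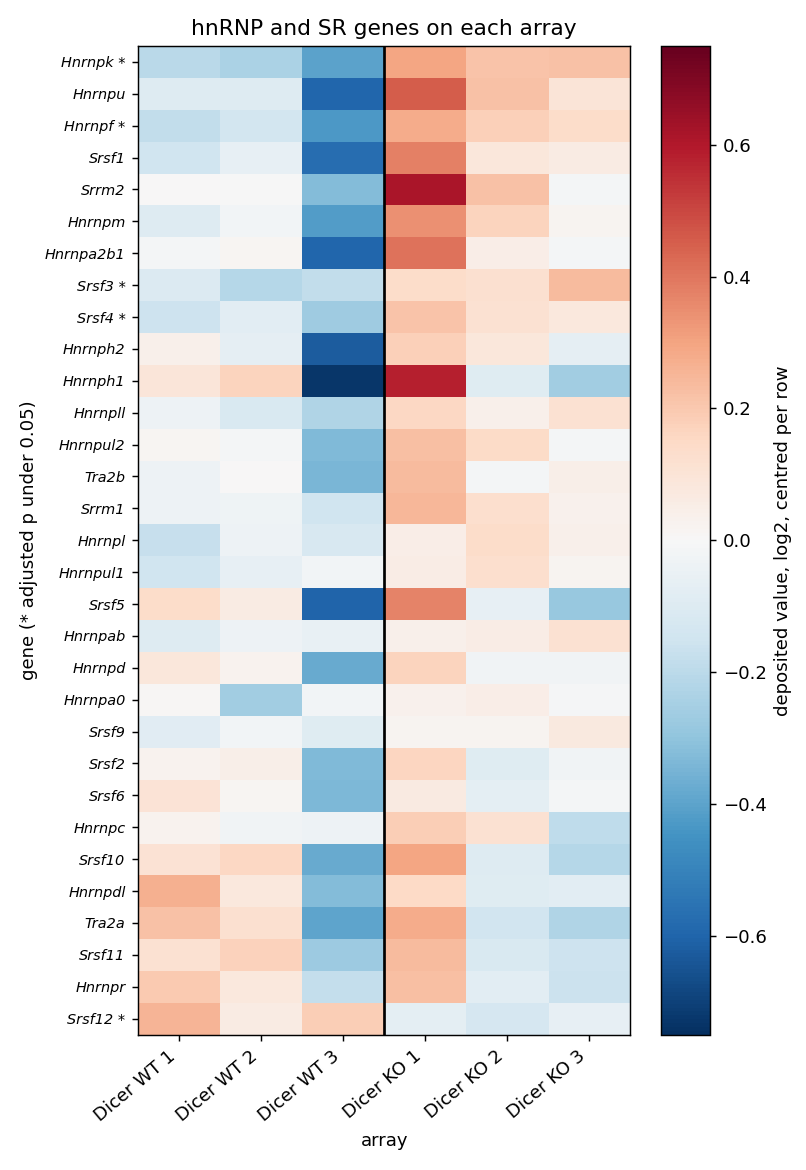
Deposited value of each of the 31 genes (rows, ordered by genotype difference) on each of the 6 arrays (columns), as a colour from blue (low) to red (high) on the centred log2 scale, with an asterisk for genes at adjusted p under 0.05. Dicer WT 3 is the bluest column, down to -0.73 for Hnrnph1, and Dicer KO 1 the reddest, up to 0.61 for Srrm2.

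The members shared a pattern across arrays that runs within the genotypes. Dicer WT 3 was the lowest Dicer WT array for 25 of 31 members (80.6%), against 48.2% of the genes of the higher level class and 38.5% of all genes. Dicer KO 1 was the highest Dicer KO array for 24 members (77.4%), against 40.2% of the higher class and 34.1% of all genes. Both held for 24 members (77.4%), 30.2% of the higher class and 17% of all genes. Dicer KO 3 was the lowest Dicer KO array for 21 members (67.7%), against 42.6% of the higher class and 31.5% of all genes. These shares describe the 6 arrays and carry no test.

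The spread within genotypes was wider for the members than for their level class. The median gap of Dicer WT 3 from the mean of Dicer WT 1 and 2 was -0.33 for the members, where the higher class had -0.028. On Dicer KO 1 the median member lay 0.19 above the mean of Dicer KO 2 and 3, against 0.0015 for the higher class. The median SD over the Dicer WT arrays was 0.19 for members, 0.092 for the higher class and 0.076 for all genes, and that over the Dicer KO arrays was 0.12, 0.096 and 0.076. For the 42 other splicing regulators taken up below these SDs were 0.12 and 0.13, so a wide spread is not particular to the members. Hnrnph1 had the widest gaps, -0.86 on Dicer WT 3 and 0.76 on Dicer KO 1, followed on Dicer WT 3 by Srsf5 (-0.70). The called genes had smaller ones: Hnrnpk -0.18 and 0.082, Hnrnpf -0.27 and 0.12, Srsf4 -0.15 and 0.12, Srsf3 -0.028 and -0.042, Srsf12 0.027 and 0.018. A small spread within genotypes itself favours a call, so this is built into the choice of these genes. Some genes that were not called had small gaps too, such as Hnrnpl at -0.013 and -0.041. The median of the B cell markers was lowest on Dicer WT 1 among the Dicer WT arrays and highest on Dicer KO 1 among the Dicer KO arrays. What sets Dicer WT 3 and Dicer KO 1 apart was not tested.

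**Figure D3:**
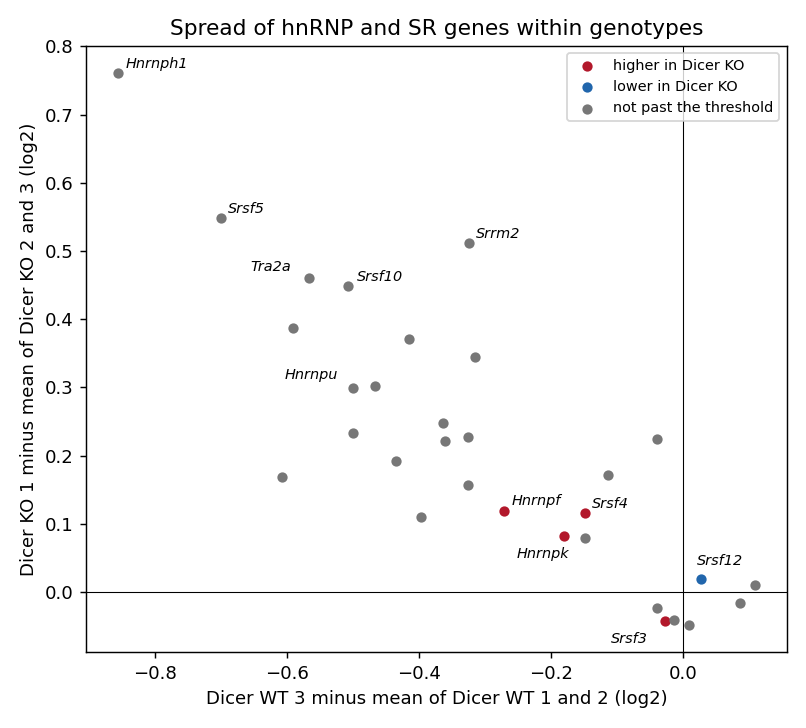
For each of the 31 genes, the gap of Dicer WT 3 from the mean of Dicer WT 1 and 2 (horizontal axis) and of Dicer KO 1 from the mean of Dicer KO 2 and 3 (vertical axis), both in log2. Most genes lie to the upper left, out to Hnrnph1 at -0.86 and 0.76. Of the called genes (red and blue) Hnrnpf lies farthest out at -0.27 and 0.12, and some genes that were not called also lie near the origin.

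Most members had a positive difference, a description of the list with no test. Of the 31 members 26 had a positive difference and the median was 0.19, where 69.2% of the higher class were positive with a median of 0.11 and 45.2% of all genes were positive with a median of -0.011. For 13 members the Dicer KO arrays lay wholly above the Dicer WT arrays, for 1 wholly below, and for 17 they overlapped. Over all genes 13.5% lay wholly above and 12.7% wholly below, and 38% of the higher class lay wholly above. Over the members the median value was 0.0013, -0.019 and -0.33 in Dicer WT against 0.22, 0.050 and -0.012 in Dicer KO. Dicer WT 1 lay above Dicer KO 3, so the genotypes overlapped in this median.

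**Figure D4:**
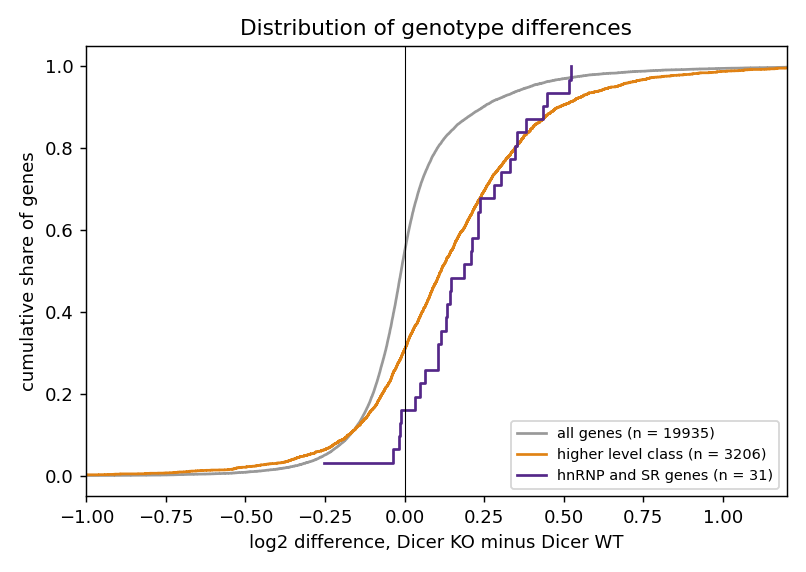
Cumulative share (vertical axis) of genes by Dicer KO minus Dicer WT in log2 (horizontal axis, cropped) for all 19935 genes, the 3206 genes of the higher level class and the 31 hnRNP and SR genes. The median of the hnRNP and SR genes is 0.19, to the right of 0.11 for their level class and -0.011 for all genes.

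Without Dicer WT 3 the median member difference was 0.12, and without both Dicer WT 3 and Dicer KO 1, a fit added after seeing the data, it was 0.069 with 19 of 31 members positive. The higher class had medians of 0.094 and 0.087 in those fits. Dicer WT 3 was lowest and Dicer KO 1 highest of their genotypes for 24 of 31 members, so leaving them out had to lower those differences. This held for 30.2% of the higher class, so these medians do not test the members against the class. Lower values and falls in the fit without both arrays are in part built in. Hnrnpk, Hnrnpf and Srsf3 were called in both fits. In the fit without both arrays Tra2a (-0.36, limma adjusted p = 0.0337) and Srsf11 (-0.28, adjusted p = 0.0468) were called lower. Hnrnph1 (-0.30), Srsf5 (-0.27) and Srsf10 (-0.29) were then negative without passing (adjusted p 0.0746, 0.13 and 0.0619). Centring arrays within level classes left Hnrnpk and Hnrnpf called, with a median member difference of 0.088.

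Of the 31 members 8 lay on several rows, and rows of a gene can also bind transcripts of processed copies. The 3 rows of Hnrnpk differed by 0.53, 0.51 and 0.52, and the 4 rows of Hnrnpf by 0.39 to 0.47. The rows of Srsf3 were less alike. On 2 of them, in the higher level class, the difference was 0.27 (limma adjusted p over all rows 0.0409 and 0.0392). On the other, outside that class, it was 0.46, where Dicer WT 2 read -0.47, and this row did not pass (0.0578). The difference of 0.33 given for Srsf3 averages these rows. Tra2a was divided: its row with RefSeq transcripts differed by 0.29 ± 0.18 SE, and 2 rows annotated to cDNA clones alone by -0.17 ± 0.22 and -0.16 ± 0.19. None of the Tra2a rows passed over all 28815 rows (limma adjusted p 0.444 to 0.773). The mean of -0.013 for Tra2a thus joins rows of opposite sign.

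**Figure D5:**
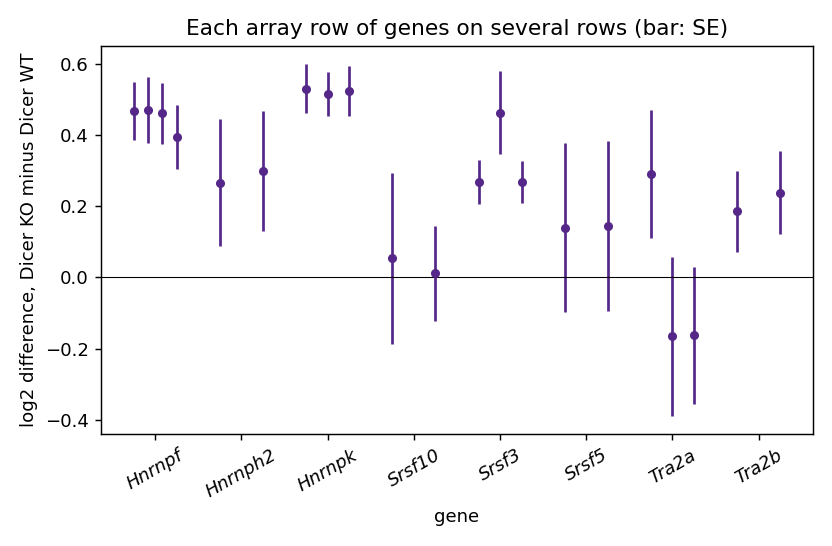
Dicer KO minus Dicer WT in log2 (vertical axis) for every array row of the 8 genes on several rows (horizontal axis), each with the SE of the limma fit. The 3 rows of Hnrnpk lie together near 0.52, and those of Tra2a run from -0.17 to 0.29.

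The genes around the members in the splicing pathway moved in both directions. Of 35 measured core snRNP proteins 4 were higher and 3 lower (20% called), with a median of -0.023. Of these 35 genes 19 were in the higher level class. In that class 25.3% of genes were called, against 8.73% over all levels, so 20% lies between these shares. By direction, 21% of the class rose and 4.37% fell, and over all genes 5.94% and 2.79%. The 3 falls among 35 genes are a larger share than either share of falls, a count of few genes without a test. Snrnp200, the helicase that unwinds U4 from U6, read -0.35, -0.34 and -0.29 in Dicer WT against 0.42, 0.38 and 0.29 in Dicer KO, a rise of 0.69 ± 0.054 SE (limma adjusted p = 0.0011). Prpf8, the scaffold of the spliceosome's active site, rose by 0.56 ± 0.075 SE (adjusted p = 0.00566) and the Prp19 complex subunit Plrg1 by 0.28 ± 0.065 SE (0.0458). Of the genes that fell, all 3 encode small proteins of the Sm and Lsm rings: Snrpg changed by -0.57 ± 0.10 SE (0.0165), Lsm4 by -0.37 ± 0.058 SE (0.0104) and Snrpd2 by -0.36 ± 0.087 SE (0.0485). The other measured ring genes of the list did not pass. Of these, Snrpe at 0.031 and Snrpb at 0.013 had positive differences and the rest negative ones, down to -0.27 for Lsm6. Plrg1 and Snrpd2 were called in no fit that left out 1 array, Snrnp200 and Prpf8 in all 6. Without Dicer KO 2 none of the 3 falls was called, and Snrpg was also not called without Dicer WT 2 (0.0598).

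Among 18 factors of the 3′ splice site and U2 snRNP, Puf60 (0.37 ± 0.063 SE, limma adjusted p = 0.0148) and the SF3a subunit Sf3a3 (0.31 ± 0.064 SE, 0.0305) rose and 0 fell (11.1% called), with a median of 0.060. Of these 18 genes 12 were in the higher level class, so this share too lies between 8.73% and 25.3%. Leaving out Dicer WT 1, Dicer WT 2 or Dicer KO 2 ended both calls, as did centring within level classes (adjusted p 0.0775 and 0.159). Of 42 other splicing regulators 9 rose and 1 fell (23.8% called), with a median of 0.092. In this list 32 of 42 genes were in the higher level class, and the share is near the 25.3% of that class. Sfpq, a paraspeckle protein (0.45 ± 0.068 SE, adjusted p = 0.00912), Celf1, which binds GU-rich RNA (0.41 ± 0.064 SE, 0.0107), and the poly(C) binding Pcbp1 (0.42 ± 0.070 SE, 0.0127) had the lowest p-values among the rises, and the cold-inducible Cirbp changed by -0.61 ± 0.14 SE (0.0446). Sfpq was called in all 6 fits that left out 1 array, Celf1 in 5, Pcbp1 in 3 and Cirbp in 1. This list also lay lower on Dicer WT 3, by a median gap of -0.18, and higher on Dicer KO 1, by 0.15. Its rises numbered 2 without Dicer WT 1, 3 without Dicer WT 2, 5 without Dicer WT 3 and 1 without Dicer KO 2, and its falls numbered 8 without both Dicer WT 3 and Dicer KO 1. That last fit lowers genes with this array pattern by its choice of arrays.

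The measured Clk and Srpk genes, which encode kinases that phosphorylate SR proteins, did not pass. Clk2 has no gene value here. Of 11 genes in the list of kinases and import factors, Tnpo1, a nuclear import receptor of hnRNPs, was called (0.48 ± 0.073 SE, limma adjusted p = 0.00975), and the list median was 0.10, with 9.09% of the list called. Of these 11 genes 9 were in the higher level class, where 25.3% of genes were called, against 8.73% over all levels. The median value of the list was -0.014, 0.042 and -0.24 in Dicer WT against 0.12, 0.013 and -0.021 in Dicer KO, with Dicer WT 3 lowest and Dicer KO 1 highest. Tnpo1 was called in all 6 fits that left out 1 array. Before adjustment 2 of the 11 genes were higher and 0 lower at p under 0.05. Of 10 measured factors of nonsense-mediated decay and the exon junction complex, limma called 0, and 0 had an unadjusted p under 0.05. Their median was 0.021. Of these 10 genes 6 were in the higher level class, and a list of 10 genes is too short to set 0 calls against those shares.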

How the data were processed

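Total RNA of 6 sorted samples was hybridised to Affymetrix arrays. The authors deposited 1 table of log2 values (base assumed) for 28815 rows. MAS5 is named in the submitters' processing notes without version or role. No source used here states the normalization. Every row proved to be centred on its median (largest absolute row median 5e-07).

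Row names came from GEO's annotation of the platform: 21780 had 1 symbol, of which 21689 matched RefSeq (GRCm38.p6) by gene ID, 1605 had several and 5430 were unnamed here. Rows of a gene were averaged. Genotypes were compared with limma 3.58.1 in R 4.3.3 (lmFit, eBayes), adjusted over 19935 genes, and the procedure was tested on simulated data. The simulated noise was independent between genes and held no shared array pattern. It therefore does not test the calls under the pattern described above. No filter was applied because levels were removed by the centring. A gene was in the higher level class if at least 1 row held only whole multiples of the float step for values of 8 to 16.

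The members and lists were chosen with earlier results of these data known. All members could be named, as could Dicer1 and, per pathway list and direction, up to 3 called genes with the lowest p. Called markers and ring genes that did not pass were named after their values were seen. The design text speaks of biological replicates. It gives no pairing, so the replicate numbers were not used as pairs. Same-numbered arrays correlated at 0.27, -0.076 and 0.30 in their deviations from the genotype means. Arrays of different number correlated at -0.37 to 0.23. These values do not settle whether the numbers mark pairs, and the fit with the replicate number as a block is given below. Alternatives were a replicate block, robust prior, array weights, other centrings, single rows, the higher class alone and leaving out 1 array; leaving out Dicer WT 3 and Dicer KO 1 together was added after seeing the data.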

Additional observations from a re-analysis of the deposited data

How the results depend on the processing

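Members higher numbered 4, and 2 to 3 when 1 array was left out, 2 with centring within level classes and 7 with the replicate number as a block, which added Hnrnpu (limma adjusted p = 0.0177), Hnrnpm (0.0347) and Srrm2 (0.0484). The higher class alone gave 5, adding Hnrnpu. Members lower numbered 1, and 0 to 1 when 1 array was left out. They numbered 0 with a robust prior, the array median subtracted, centring within level classes or the higher class alone, which does not hold Srsf12, and 2 without both Dicer WT 3 and Dicer KO 1. All genes called numbered 1741, 729 to 1597 with 1 array left out, 1049 when the higher class alone was tested, which has fewer genes, and 2063 with the block. Not every array correlated best with its own number. With 1 array left out the core snRNP calls ranged from 2 to 6, the U2 calls from 0 to 2, the other regulators from 1 to 7 and the median member difference from 0.12 to 0.23. Centring within level classes left 0 U2 calls and 4 calls of other regulators. Decay factors had 1 call without both Dicer WT 3 and Dicer KO 1.

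Signs turned for members that were not called. Centring within level classes gave -0.035 for Srsf6, -0.049 for Hnrnpc and -0.066 for Srsf10, array weights -0.028 for Srsf6 and -0.074 for Srsf10, and single rows 0.29 for Tra2a. Without both Dicer WT 3 and Dicer KO 1 the values were -0.30 for Hnrnph1, -0.27 for Srsf5, -0.080 for Hnrnpd, -0.090 for Srsf2, -0.11 for Srsf6, -0.039 for Hnrnpc and -0.29 for Srsf10. Most members lay low on Dicer WT 3 and high on Dicer KO 1, so lower values are built into that fit. With 1 array left out the ranges were -0.048 to 0.41 for Hnrnph1, -0.091 to 0.29 for Srsf5, -0.016 to 0.22 for Hnrnpd, -0.016 to 0.17 for Srsf2, -0.068 to 0.15 for Srsf6, -0.025 to 0.16 for Hnrnpc, -0.14 to 0.14 for Srsf10, -0.18 to 0.12 for Hnrnpdl, -0.20 to 0.11 for Tra2a, -0.16 to 0.065 for Srsf11 and -0.15 to 0.045 for Hnrnpr. Except where stated, the cause was not tested.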

Other observations

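Rows with several symbols, of which 1 is an hnRNP gene, belong to no comparison above. The 9 rows that include Hnrnpa3 differed by 0.33 to 0.37 (limma adjusted p over all rows 0.431 to 0.496), with medians of 0.034, -0.014 and -0.77 in Dicer WT against 0.37, 0.015 and -0.063 in Dicer KO. The 5 rows that include Hnrnpa1 differed by -0.074 to 0.011, with medians of 0.13, 0.098 and -0.35 in Dicer WT against 0.17, -0.098 and -0.32 in Dicer KO. The row that includes Hnrnph3 differed by 0.41 (adjusted p = 0.188). Dicer WT 3 was the lowest Dicer WT array and Dicer KO 1 the highest Dicer KO array in both sets of medians.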
